A study of Mus musculus with 5 samples.

Results

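Mural cells, the pericytes and vascular smooth muscle cells that wrap small blood vessels, were examined among the GFP+ Prx1-derived cells of mouse hindlimb muscle before and after bone injury. A cell was taken as mural when at least 3 of the 6 genes Rgs5, Notch3, Mcam, Myh11, Cspg4 and Higd1b had a unique molecular identifier (UMI, 1 counted RNA molecule) and when Pdgfra, the receptor that marks fibro-adipogenic and mesenchymal progenitors (FAP/MP), had none. The rule was applied to cells with 350 to 8000 detected genes, under 20% mitochondrial UMIs and at least 1000 UMIs. It gave 661 mural cells of 29831. The retained cells with fewer than 3 of the 6 genes are called the other cells. Since the cells were chosen by their measured UMIs of these genes, the levels of the 6 genes and of Pdgfra are a description and not a result.

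Pericytes lie within the basement membrane of capillaries and venules and are held there by PDGF signalling from endothelium, whereas smooth muscle cells form the contractile wall of arterioles and set vessel tone through actin, myosin and calcium-handling proteins. Notch3 signalling maintains the arterial smooth muscle state. After tissue injury mural cells are known to proliferate, to release cytokines and to deposit matrix, and their place among the sources of fibroblasts is debated.

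Single-cell RNA sequencing (scRNAseq) was done on cells of Prx1Cre;RosamTmG mice (Prx1Cre;mTmG in the labels), 10 to 14 weeks old. They were kept on a C57BL6/J background (C57Bl/6 in the labels). In this strain Cre is driven by the Prx1 enhancer of limb mesenchyme and switches a reporter from membrane Tomato to membrane GFP, so mural cells of another lineage were not sampled. Muscles around the tibia (tibialis anterior, extensor digitorum longus, tibialis posterior, plantaris, gastrocnemius and soleus) were taken without periosteum or bone marrow, and GFP+ cells were sorted. Each of the 5 conditions has 1 library pooled from 2 mice: d0 (uninjured, SC3), d3 and d5 post-fracture (SC4 and SC9; non-stabilized tibial fracture), and d3 and d5 post-polytrauma (SC5 and SC10; the fracture with compression of the surrounding muscles). With 1 library per condition no difference between conditions was tested, no p-value is given, and the intervals below cover counting error only.

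The conditions of 2 libraries rest on cell numbers and not on their labels. SC5 is labelled d5 post-fracture and was used as d3 post-polytrauma, and SC9 is labelled d3 post-polytrauma and was used as d5 post-fracture, because the cell numbers per cluster that the study lists for the d5 fracture sample add up to the barcodes of SC9. SC9 holds 2001 barcodes and SC5 holds 6915. The libraries held 18247307 UMIs at d0 (SC3, 5653 barcodes), 100403837 at d3 post-fracture (SC4, 6229 barcodes), 56084145 at d5 post-fracture (SC9), 103780343 at d3 post-polytrauma (SC5) and 204474562 at d5 post-polytrauma (SC10, 13641 barcodes). Mural cells contributed 1885764, 593224, 953046, 321740 and 1232932 of these UMIs in the same order. The median mural cell had 4496 UMIs at d0, 6316 at d3 post-fracture, 18556.5 at d5 post-fracture, 7472 at d3 post-polytrauma and 9931 at d5 post-polytrauma. The medians of the other cells were 3535, 18071, 35311, 15704 and 15789.5 in the same order, lower than in mural cells at d0 and higher in each injured library. Mural cells also carried more mitochondrial UMIs than the other cells of their library, with medians of 9.19% against 2.97% at d0 and 3.33% against 1.95% at d3 post-fracture.

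Several properties of the libraries stood apart before any gene was compared. The barcodes of SC3, SC4 and SC5 come from one set and those of SC9 and SC10 from another, so a difference between these sets of libraries cannot be told apart from library preparation. Scand1 shows this, with 0.53, 0 and 0 CPM (each gene's UMIs as a share of all UMIs of the mural cells, scaled to 1e6) in SC3, SC4 and SC5 and 167 and 211 CPM in SC9 and SC10. Its level in the other cells moved in the same way (1.04, 0.332 and 0.408 against 162 and 205 CPM), and Tgfb1 and Klf2 also stood higher in SC9 and SC10. Sex genes differed as well. Xist, expressed from the inactive X chromosome, stood at 886, 568, 592 and 497 CPM in the mural cells of SC3, SC4, SC9 and SC5 and at 0 in SC10, whereas the Y-linked Ddx3y was at 0 in those 4 libraries and at 73.0 CPM in SC10. At d5 post-polytrauma the sex genes thus differed from the other libraries along with the injury, and these cannot be told apart.

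SC9 and SC10 share 944 barcodes, of which 303 were retained with at least 1000 UMIs in both. Among the mural cells of d5 post-fracture (SC9), 15 of 42 carried a barcode that SC10 also holds, and none of the 15 had a Ddx3y UMI. The corresponding numbers were 6 of 421 at d0, 2 of 74 at d3 post-fracture, 2 of 31 at d3 post-polytrauma and 1 of 93 at d5 post-polytrauma. The 15 cells had a median of 29749 UMIs against 13409 in the other 27, and differed from them in level. Acta2 stood at 5605 against 12155 CPM and Col1a1 at 6904 against 1423 CPM, so several d5 post-fracture values below are also given without these cells. Each of the 15 held at least 10 times the UMIs that its barcode had in SC10. A filter that left out only barcodes below this factor kept all 42 cells. Values given below without shared barcodes leave out every barcode seen in another library.

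The identity of the cells was checked on genes that the rule did not use. EGFP, the recombined reporter, was found in 420 of 421 mural cells at d0 and in every mural cell of the other libraries, and tdTomato in none. Acta2, Tagln and Myl9 were higher in mural than in other cells of every library. Hematopoietic genes summed to 30.8 CPM at d0 and to no more than 17.8 CPM after injury, with Ptprc, Tyrobp and Cd74 at 0 in every library, and the myogenic genes Pax7, Myod1 and Myf5 and the Schwann gene Sox10 were also at 0. Endothelial genes (8 genes) summed to 14.3 CPM at d0, 111 at d3 post-fracture, 90.2 at d5 post-fracture, 87.0 at d3 post-polytrauma and 334 at d5 post-polytrauma, against 58.1, 9.68, 14.6, 17.8 and 11.2 CPM in the other cells. The most abundant was Tek at d0 (5.30 CPM) and Flt1 after injury (59.0 CPM at d3 post-fracture). At least 2 endothelial genes were seen in 0, 5, 8, 3 and 12 mural cells, and at d5 post-polytrauma 1 cell held 92% of the Cdh5 UMIs. Genes of red cells summed to 2702 CPM at d0, nearly all from 1 cell, and to at most 6.74 CPM after injury. Schwann genes reached at most 53.5 CPM (S100b), myogenic genes 4.87 CPM, muscle fibre genes 10.5 CPM, tenocyte genes 337 CPM at d0, and 12 FAP/MP genes 3295 CPM at d0 against 53847 CPM in the other cells of that library.

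Mural cells made up 9.09% of the cells at d0 (421 of 4632, exact binomial 95% interval 8.28 to 9.95%). After fracture the share was 1.32% at d3 (74 of 5589, 1.04 to 1.66%) and 2.86% at d5 (42 of 1468, 2.07 to 3.85%). After polytrauma it was 0.50% at d3 (31 of 6201, 0.340 to 0.709%) and 0.779% at d5 (93 of 11941, 0.629 to 0.953%). Under this rule the d0 interval lies above all others, and the intervals of the post-polytrauma libraries overlap each other but neither post-fracture interval. When each cell was first thinned to 2000 UMIs the shares were 4.99, 0.671, 1.74, 0.229 and 0.425% in the order d0, d3 and d5 post-fracture, d3 and d5 post-polytrauma, with the same order of levels. The thinned interval of d5 post-polytrauma (0.315 to 0.562%) then overlapped that of d3 post-fracture (0.470 to 0.928%). With at least 4 of the 6 genes required, the share was 3.37% at d0 (2.87 to 3.93%) and 2.52% at d5 post-fracture (1.78 to 3.46%), and these intervals overlap. Without the cells that share a barcode with another library, d5 post-fracture was at 4.51% (2.99 to 6.49%). Fewer mural cells and more of the other sorted cells cannot be told apart from a share.

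**Figure D1:**
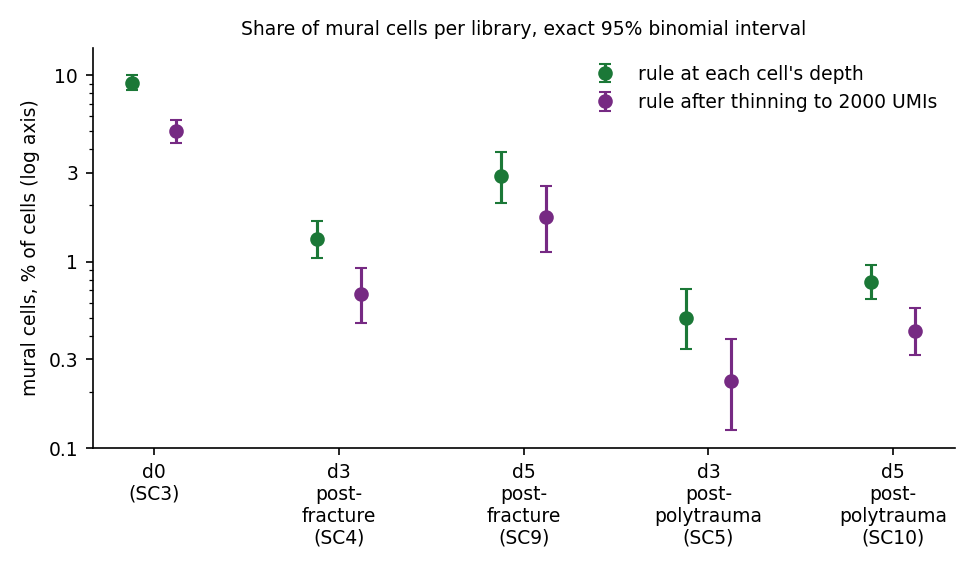
Share of mural cells among the cells of each library on a log axis, with exact 95% binomial intervals, for all UMIs and for cells thinned to 2000 UMIs. The d0 library stands at 9.09%, and the 4 libraries after injury lie between 0.50 and 2.86%.

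The threshold of 3 genes cuts through a gradual range at d0. The 256 d0 cells with 2 of the 6 genes and no Pdgfra had 11772 CPM of Acta2, close to the 12424 CPM of the 265 cells with exactly 3 genes and the 13482 CPM of the 156 cells with 4 or more. In the libraries after injury the step was larger, with 2776, 6840 and 8412 CPM at d3 post-fracture and 386, 5766 and 8574 CPM at d5 post-fracture. It was 1039, 4106 and 6892 CPM at d3 post-polytrauma and 1663, 3200 and 5587 CPM at d5 post-polytrauma. In the last library, cells with 0 of the genes and no Pdgfra had 1268 CPM. At d0 the cells called other therefore include cells with the contractile genes.

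Before injury the contractile genes were abundant in the mural cells. Of the genes in the rule, which are given as a description, Myh11, the smooth muscle myosin heavy chain, stood at 2748 CPM and Rgs5, a regulator of G-protein signalling typical of pericytes, at 393 CPM. Acta2 (smooth muscle actin, ENSMUSG00000035783, chr19:34241090-34255590, minus strand, GRCm38 in GENCODE M21) reached 12833 CPM. Against the Pdgfra-positive cells of the same library, and outside the 6 genes, high ratios belonged to Cck (441-fold), a peptide hormone, Scn3a (386-fold), a sodium channel subunit, Fam81a (353-fold), Tesc (276-fold), a calcium-binding protein, Asb2 (237-fold), a ubiquitin ligase subunit, Grp (180.5-fold), the gastrin-releasing peptide gene, and Rbm24 (159-fold), a muscle splicing factor. The ratios of Cck, Scn3a and Fam81a rest on 1 UMI each in the Pdgfra-positive cells, and the counting interval of the log2 ratio of Cck ran from 6.28 to 14.1. Others among the leading 25 were Timp4 (124-fold), an inhibitor of matrix proteases, Tinagl1 (115-fold), a matrix protein, Scn4b (98.3-fold), a sodium channel subunit, Pln (94.1-fold), the inhibitor of the calcium pump SERCA, and Tagln (93.7-fold), an actin-binding protein. Hemoglobin genes also had high ratios, but 1 cell held at least 99% of their UMIs.

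Clustering of the 421 d0 mural cells on 2000 variable genes gave 4 groups, described here without a test since they were formed from the same counts. The first (119 cells, 28.3%) led with Ntf3, Cd24a, Rgs5 and Angpt2. The second (163 cells, 38.7%) led with Grp, Pop4 and Abt1, and the third (121 cells, 28.7%) with Rcan1, Irak3, Zc3h12a and Il6, the last at 2166 CPM against 676 CPM in the rest. The fourth (18 cells, 4.28%) led with Col11a1, Thbs4 and Angptl1, and 16 of its 18 cells had doublet scores in the range left out in an alternative analysis. It stood above the rest for 7 of 8 FAP/MP and 4 of 4 tenocyte markers, against 1 of 7 pericyte and 0 of 7 smooth muscle markers. The d0 levels of FAP/MP and tenocyte genes include these cells.

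Genes of the contractile apparatus were lower after injury, most of all after polytrauma. Acta2 stood at 12833 CPM at d0, at 7987 and 8267 CPM at d3 and d5 post-fracture, and at 5641 and 4721 CPM at d3 and d5 post-polytrauma. Myl9, the regulatory light chain of smooth muscle myosin (chr2:156775420-156781658, plus strand), stood at 7374, 2608, 2239, 1333 and 1038 CPM in the same order. Every injured library was below d0 for both genes, and both post-polytrauma libraries were below both post-fracture libraries. The log2 ratio of Myl9 to d0 was -1.50 (95% interval -1.58 to -1.42) at d3 post-fracture, -1.72 (-1.79 to -1.65) at d5 post-fracture, -2.47 (-2.61 to -2.33) at d3 post-polytrauma and -2.83 (-2.91 to -2.75) at d5 post-polytrauma. In the 27 d5 post-fracture cells whose barcode was in no other library Acta2 was at 12155 CPM, close to d0. Among the 15 cells left out there, 3 rich in Col2a1 held 21.3% of the library's mural UMIs but only 7 Acta2 UMIs. They lower the d5 post-fracture level of Acta2 given above.

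The promoters of these 2 genes are shown because serum response factor, which binds CArG boxes, is the known activator of contractile genes in smooth muscle. The sequences are the 250 bases before the RefSeq start in GRCm38.p6, Myl9 at chr2:156775214-156775463 on the plus strand and Acta2 at chr19:34255374-34255623 on the minus strand, each written 5′ to 3′ with a strict CArG box in capitals.
Myl9: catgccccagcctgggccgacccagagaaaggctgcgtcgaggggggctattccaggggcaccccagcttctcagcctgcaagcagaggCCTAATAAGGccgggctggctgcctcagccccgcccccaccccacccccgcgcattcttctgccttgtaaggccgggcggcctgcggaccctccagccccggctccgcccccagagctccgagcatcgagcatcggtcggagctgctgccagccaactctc
Acta2: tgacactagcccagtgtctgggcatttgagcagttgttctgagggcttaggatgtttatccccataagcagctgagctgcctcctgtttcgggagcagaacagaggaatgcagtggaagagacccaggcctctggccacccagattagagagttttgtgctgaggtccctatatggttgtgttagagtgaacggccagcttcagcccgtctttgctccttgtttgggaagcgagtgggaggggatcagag
The strict CArG box is CCWWWWWWGG, where W is A or T, a pattern that reads the same on both strands. It occurred in 1 of the 16 contractile genes with a promoter in the table, Myl9, where its first base lies at position -161. It occurred in 439 of all 27025 genes with a promoter in the table (1.62%). The Acta2 sequence holds ccctatatgg and ccttgtttgg, each 1 base from the strict pattern and so not marked. A match, or its absence, is a description of these letters and not of binding.

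Of 20 contractile genes, 19 could be compared at d3 post-fracture, where 14 were at least 2-fold lower than at d0 and 1 was higher. Among all 4705 genes with a mean of at least 20 CPM over both libraries, 19.5% were at least 2-fold lower and 21.8% at least 2-fold higher (41.4% in either direction). At d5 post-fracture 9 of 20 were lower and 1 higher, against 10.3% and 29.6% of 5401 genes (40% in either direction). At d3 post-polytrauma 13 of 19 were lower and 1 higher, against 23.7% and 25.6% of 4696 genes (49.3% in either direction), and at d5 post-polytrauma 15 of 19 were lower and 1 higher, against 16.9% and 34.5% of 5385 genes (51.4% in either direction). Scaling by median of ratios moved the share of higher genes among all those past 2-fold from 52.8 to 40.0% at d3 post-fracture, from 74.1 to 47.9% at d5 post-fracture and from 67.1 to 47.5% at d5 post-polytrauma. The median log2 ratio of the contractile genes was -1.39, -0.86, -1.88 and -2.44 for d3 and d5 post-fracture and d3 and d5 post-polytrauma, and the medians of all genes compared were 0.05, 0.42, 0.11 and 0.46. Each of these comparisons uses the same d0 library. A gene near 0 in one library can reach the minimum of 20 CPM only through the other, and is then past 2-fold, so the counts of a list are descriptions. Without the d5 post-fracture cells that share a barcode the median there was -0.01, so the lower contractile level at d5 post-fracture rests on those cells. With the rule applied to cells thinned to 2000 UMIs, the 4 medians were -0.72, -0.74, -1.70 and -1.65 in the same order. With every cell weighed the same they were -0.83, -0.41, -1.89 and -2.11. In both settings the d3 post-fracture median was under 2-fold. In the other cells the contractile medians were -3.43, -3.82, -3.83 and -2.44, beside the d0 cells with contractile genes that fell short of the rule.

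Members of the list differed in how far they stood from d0. Pln was furthest below d0 after polytrauma among the genes given here, with 530 CPM at d0, 110 and 304 CPM at d3 and d5 post-fracture and 21.8 and 25.1 CPM at d3 and d5 post-polytrauma. Mylk, the kinase that activates smooth muscle myosin, stood at 2532, 747, 1130, 407 and 414 CPM, and Synpo2, an actin-binding protein, at 404, 57.3, 142, 46.6 and 29.2 CPM. In each of these genes d0 was the highest library and both post-polytrauma libraries were the lowest. Des (desmin) did not follow this order, with 356, 464, 310, 587 and 327 CPM. Actg2, the enteric smooth muscle actin (chr6:83512905-83536265), was the 1 contractile gene that was higher, with 15.4 CPM at d0 and 529, 231, 556 and 281 CPM after injury, a log2 ratio of 5.11 (4.55 to 5.71) at d3 post-fracture. At d3 post-polytrauma 1 cell held 70% of its UMIs.

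Several pericyte genes differed in the other direction. Kcnj8 and Abcc9, neighbours on chromosome 6 that encode the subunits of the ATP-sensitive potassium channel of pericytes, were almost absent at d0 and present in every injured library. Kcnj8 (chr6:142564837-142571614) stood at 6.89 CPM at d0, 207 and 201 CPM at d3 and d5 post-fracture and 146 and 138 CPM at d3 and d5 post-polytrauma. Abcc9 (chr6:142587862-142702315) stood at 3.71, 148, 142, 83.9 and 96.5 CPM. The log2 ratios of Kcnj8 to d0 were 4.91 (4.08 to 5.86), 4.87 (4.06 to 5.80), 4.41 (3.50 to 5.42) and 4.32 (3.51 to 5.26). In the other cells Kcnj8 stood at 3.18, 0.866, 7.69, 0.224 and 0.33 CPM, far below the mural cells of each injured library, though d5 post-fracture was above d0 in them as well.

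Of the 12 pericyte genes outside the rule, 3 of 9 compared at d3 post-fracture were at least 2-fold higher and none lower, near the 21.8% of all genes, and at d5 post-fracture 6 of 10 were higher and none lower, beside 29.6% of all genes. After polytrauma 4 of 9 were higher and 2 lower at either day. Among all genes 25.6% were higher and 23.7% lower at d3, and 34.5% higher and 16.9% lower at d5. The counts of lower pericyte genes lay near these shares. Vtn (vitronectin) stood at 38.2, 164, 186, 124 and 122 CPM, and Pdgfrb, the PDGF receptor that recruits pericytes, at 94.9, 157, 323, 162 and 316 CPM. Rgs4 stood at 384, 231, 227, 183 and 79.5 CPM and Cox4i2, a subunit of cytochrome oxidase, at 384, 233, 208, 311 and 142 CPM. The median log2 ratio of the list was 0.72, 1.54, 0.77 and 0.21 for d3 and d5 post-fracture and d3 and d5 post-polytrauma, and with another scaling of the libraries (median of ratios) the last became -0.28, and with every cell weighed the same it became 1.68, so its size and sign depend on the setting.

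**Figure D2:**
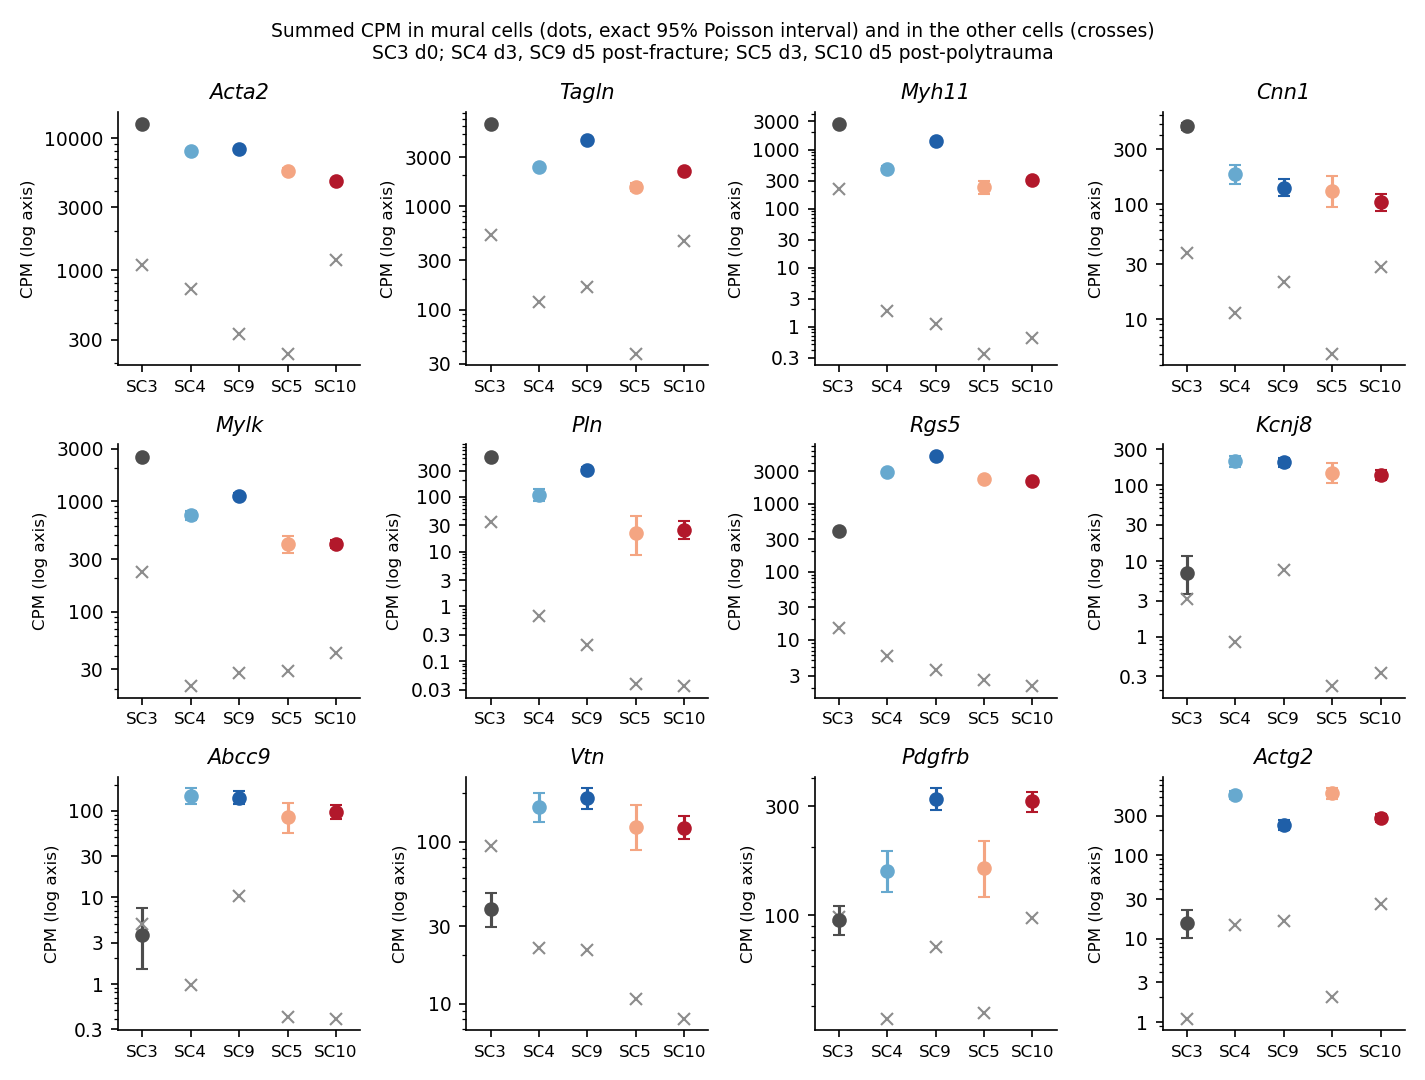
Level of 12 genes in mural cells (dots, exact 95% Poisson intervals) and in the other cells of the same library (crosses), in CPM on log axes that differ between panels. Acta2, Tagln, Myh11, Cnn1, Mylk and Pln are highest at d0, and Kcnj8 and Abcc9 stand at 6.89 and 3.71 CPM at d0 and at 83.9 CPM or more after injury.

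Rgs5 and Myh11, both genes of the rule, describe the make-up of the selected cells. After thinning to 2000 UMIs, Rgs5 without Myh11 was seen in 1.48% of mural cells at d0 (6 of 405), 41.7% at d3 post-fracture (30 of 72), 26.2% at d5 post-fracture (11 of 42), 45.2% at d3 post-polytrauma (14 of 31) and 40.7% at d5 post-polytrauma (37 of 91). Myh11 without Rgs5 was seen in 76.8, 23.6, 28.6, 16.1 and 7.69%. Neither gene was seen in 1.23, 1.39, 7.14, 3.23 and 24.2%, and without thinning 14 of 93 cells at d5 post-polytrauma had neither. Rgs5 stood at 393, 2936, 4940, 2309 and 2154 CPM in the mural cells and at no more than 14.9 CPM in the other cells.

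Cells with an Rgs5 UMI were also taken by themselves. They are not one kind across the libraries, since after thinning 83 of them also had Myh11 and 6 did not at d0, against 24 and 30 at d3 post-fracture, 16 and 11 at d5 post-fracture, 11 and 14 at d3 post-polytrauma and 25 and 37 at d5 post-polytrauma. Without thinning they numbered 131 at d0, 62 and 30 at d3 and d5 post-fracture, and 26 and 69 at d3 and d5 post-polytrauma. Among them Acta2 stood at 10569, 7568, 8017, 6326 and 5342 CPM and Kcnj8 at 15.7, 237, 307, 191 and 224 CPM. The contractile list in these cells had median log2 ratios of -1.20, -1.08, -1.51 and -1.75, smaller in size than in all mural cells except at d5 post-fracture. For the pericyte genes the medians among Rgs5-positive cells were -0.06 and 1.28 at d3 and d5 post-fracture and 0.30 and 0.44 at d3 and d5 post-polytrauma. In all mural cells they were 0.72, 1.54, 0.77 and 0.21 in the same order. Per cell, the contractile genes made up a median of 4.54% of UMIs at d0 (lowest cell 0.556%, highest 10.5%), 2.73% (0.0820 to 7.59%) and 2.69% (0.0369 to 8.60%) at d3 and d5 post-fracture, and 1.06% (0.108 to 6.59%) and 0.835% (0.132 to 8.55%) at d3 and d5 post-polytrauma. The ranges overlap, and each injured library held cells above the d0 median.

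**Figure D3:**
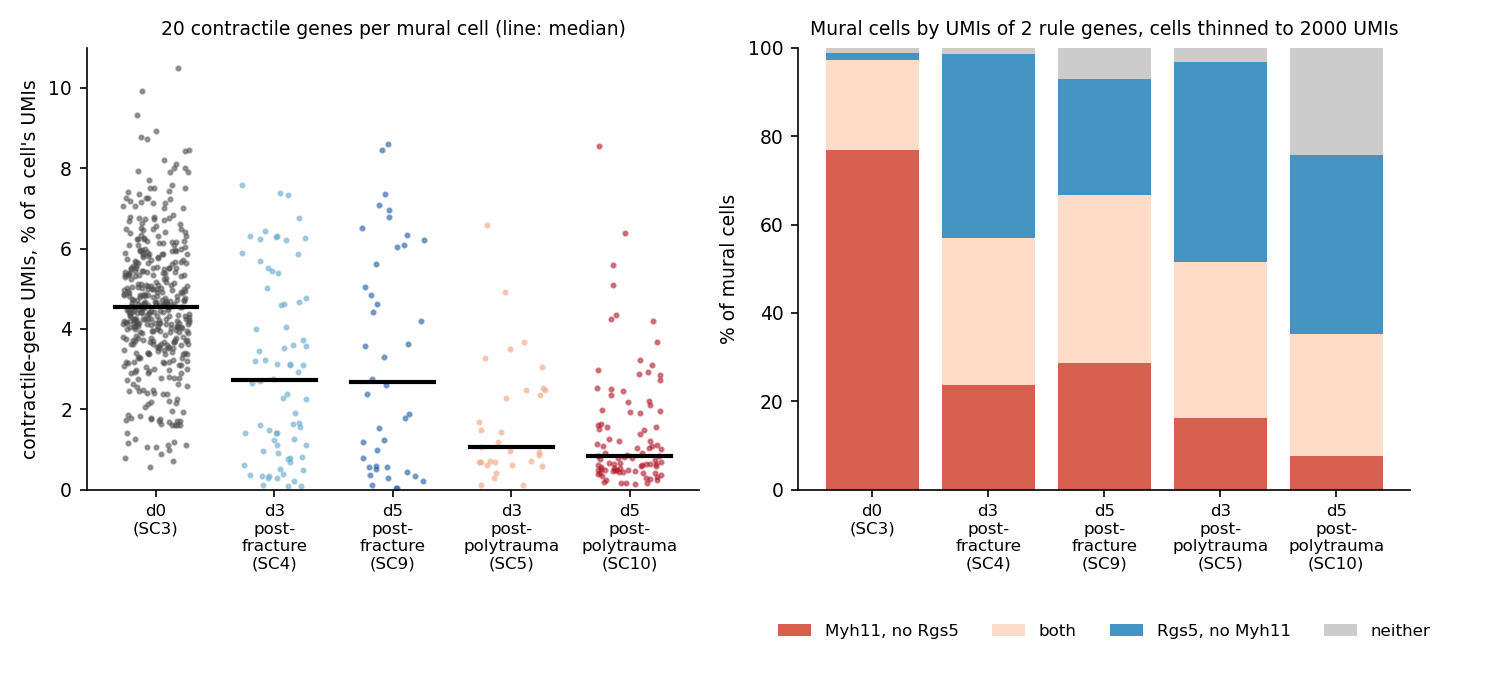
Left, share of each mural cell's UMIs on the 20 contractile genes, with the median of each library as a line (4.54% at d0, 0.835% at d5 post-polytrauma). Right, percent of mural cells with a UMI of Myh11, of Rgs5, of both or of neither after thinning to 2000 UMIs, where Myh11 without Rgs5 goes from 76.8% at d0 to 7.69% at d5 post-polytrauma.

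Receptors and enzymes that control vessel tone were lower more often than higher, except at d5 post-fracture. Of 26 such genes, 8 of 14 compared were at least 2-fold lower and 1 higher at d3 post-fracture, 3 of 16 lower and 3 higher at d5 post-fracture, 10 of 15 lower and 2 higher at d3 post-polytrauma, and 11 of 15 lower and 2 higher at d5 post-polytrauma, beside 19.5, 10.3, 23.7 and 16.9% of all genes lower and 21.8, 29.6, 25.6 and 34.5% higher. The median at d5 post-fracture was -0.54, and 0.26 without the cells that share a barcode. Gucy1a1, a subunit of the nitric oxide receptor, stood at 376, 157, 408, 93.2 and 135 CPM, with d5 post-fracture close to d0 (log2 ratio 0.12). Pde3a, which degrades cyclic AMP, stood at 331, 110, 174, 55.9 and 81.9 CPM, and Adra1a, an alpha-1 adrenergic receptor, at 54.1, 8.43, 21.0, 6.22 and 1.62 CPM. The endothelin receptors differed from each other. Ednrb stood at 40.3 CPM at d0 and 143, 124, 196 and 110 CPM after injury, whereas Ednra stood at 85.4, 69.1, 124, 74.6 and 89.2 CPM with no 2-fold difference. Adra2a, an alpha-2 adrenergic receptor, stood at 2.12 CPM at d0 and 30.3, 90.2, 18.6 and 81.1 CPM after injury.

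Many Notch pathway genes were lower after injury, fewest at d5 post-fracture. Beside Notch3, which belongs to the rule (439, 253, 430, 221 and 268 CPM), 6 of 9 of the genes compared were at least 2-fold lower at d3 post-fracture, 5 of 10 at d5 post-fracture, 8 of 9 at d3 post-polytrauma and 6 of 9 at d5 post-polytrauma, and none was higher. Among all genes 19.5, 10.3, 23.7 and 16.9% were lower in the same order. The median at d5 post-fracture was -0.87, and -0.34 after thinning. Among the targets, Hes1 stood at 347, 87.7, 389, 31.1 and 152 CPM, Nrarp, a feedback inhibitor, at 218, 35.4, 97.6, 46.6 and 51.9 CPM, and Heyl at 110, 67.4, 81.8, 80.8 and 56.0 CPM. Hes1 at d5 post-fracture was close to d0 (log2 ratio 0.16, interval -0.02 to 0.35), while Heyl stayed within 2-fold of d0 in every library. The ligand Jag1 stood at 235, 87.7, 152, 68.4 and 66.5 CPM and the receptor Notch2 at 163, 42.1, 44.1, 34.2 and 21.9 CPM. Nrip2 was at 518, 150, 113, 49.7 and 19.5 CPM, lower in each injured library.

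Of 19 genes of the PDGF and TGF-beta pathways, 2 of 13 compared were higher and 4 lower at d3 post-fracture, 3 of 14 higher and 2 lower at d5 post-fracture, 2 of 13 higher and 6 lower at d3 post-polytrauma, and 4 of 14 higher and 4 lower at d5 post-polytrauma. Among all genes 21.8, 29.6, 25.6 and 34.5% were higher and 19.5, 10.3, 23.7 and 16.9% lower in the same order, and several shares of the list differ from these by about 1 gene. The ligand Pdgfa stood at 256, 319, 254, 382 and 306 CPM, within 2-fold of d0 throughout. Transcription factors of mural and mesenchymal cells (26 genes) were lower in 11 of 16, 3 of 18, 13 of 16 and 7 of 18 of the genes compared and higher in 1, 5, 1 and 3. Foxc1 stood at 198, 55.6, 79.7, 9.32 and 23.5 CPM, Epas1, a hypoxia-inducible factor, at 415, 138, 274, 149 and 118 CPM, and Mef2c, a myocyte enhancer factor, at 435, 184, 432, 162 and 186 CPM. Prrx1, the endogenous gene of the Prx1 enhancer, was higher in each injured library, at 55.7 CPM at d0 and 216, 366, 255 and 395 CPM after injury, and at 144, 124, 253, 182 and 274 CPM in the other cells. Limb position genes, mostly Hox genes, were sparse, with a sum of 155 CPM at d0, and 1 of 2 genes compared was at least 2-fold lower at d3 post-fracture, 0 of 2 at d5 post-fracture, 2 of 2 at d3 post-polytrauma and 0 of 3 at d5 post-polytrauma, with none higher. Of the 5 tenocyte genes 2 could be compared each time, and 1, 1, 2 and 2 of them were lower. Their d0 level rests in part on the fourth d0 group, whose cells mostly had high doublet scores.

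**Figure D4:**
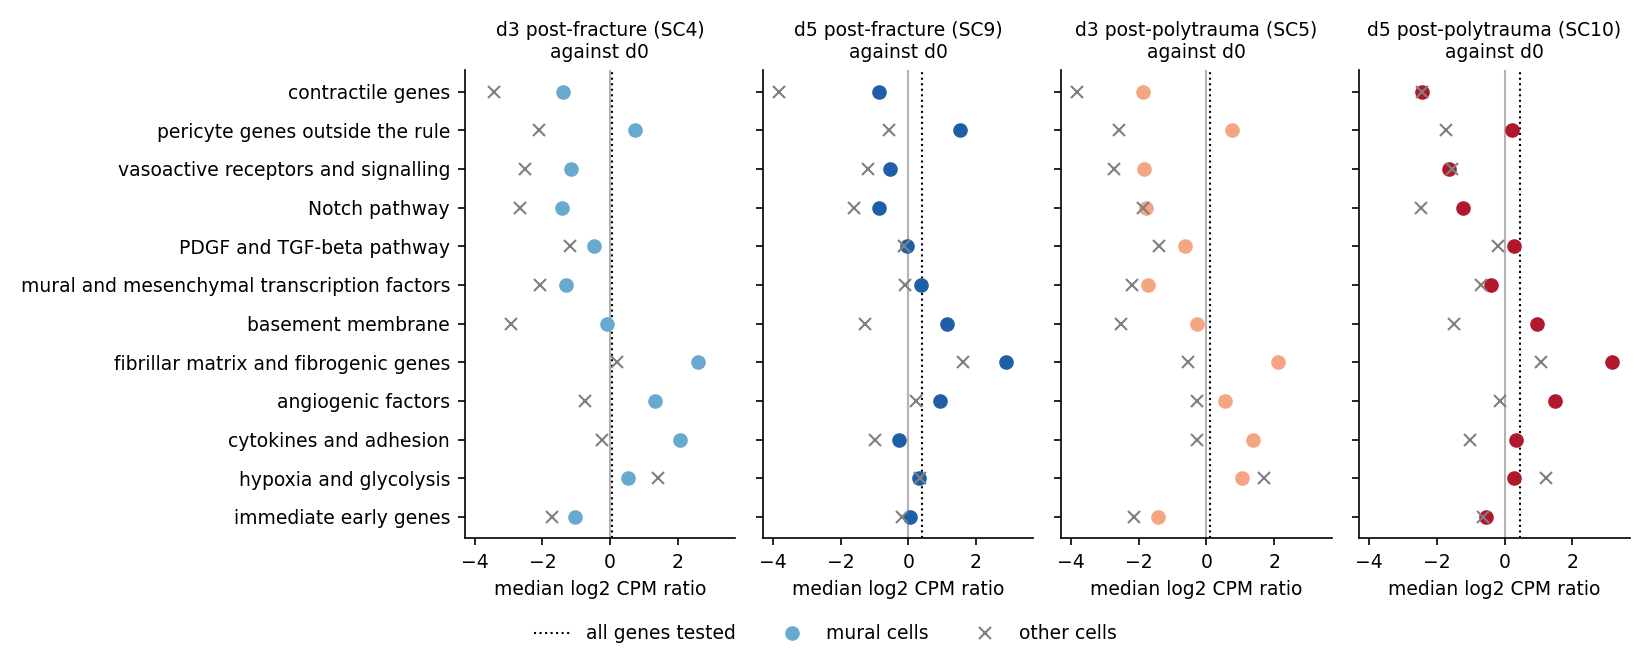
Median log2 CPM ratio to d0 for lists of genes in mural cells (dots) and in the other cells (crosses), 1 panel per injured library, with the median of all genes compared as a dotted line. Contractile medians lie between -0.86 and -2.44 and fibrillar matrix medians between 2.13 and 3.19 in mural cells.

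Most genes of the fibrillar matrix were higher in each injured library. Of 26 genes, 20 were at least 2-fold higher and 1 lower at d3 post-fracture, 21 higher and 1 lower at d5 post-fracture, 22 higher and 2 lower at d3 post-polytrauma, and 22 higher and 1 lower at d5 post-polytrauma, beside 21.8, 29.6, 25.6 and 34.5% of all genes higher. The medians were 2.61, 2.90, 2.13 and 3.19 in mural cells and 0.20, 1.61, -0.53 and 1.08 in the other cells. Col1a1, a chain of type I collagen (chr11:94936224-94953042), stood at 345 CPM at d0, 3395 and 4677 CPM at d3 and d5 post-fracture and 1483 and 4899 CPM at d3 and d5 post-polytrauma. Its log2 ratios to d0 were 3.30 (3.17 to 3.43), 3.76 (3.64 to 3.88), 2.10 (1.93 to 2.28) and 3.83 (3.71 to 3.95). In the other cells it stood at 4092, 5329, 23114, 2851 and 9960 CPM, above the mural level in each library.

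Col3a1 stood at 191, 3400, 3026, 1554 and 3597 CPM, and Postn, a matrix protein of healing tissue, at 52.0, 738, 1003, 323 and 980 CPM. For both genes d3 post-polytrauma was the lowest of the injured libraries. Sparc, a collagen-binding protein, reached 8031 CPM at d3 post-fracture from 1091 CPM at d0, and Timp1, an inhibitor of matrix proteases, 1141 CPM at d3 post-polytrauma from 36.6 CPM. Outside the list, Cthrc1, a secreted protein of activated fibroblasts, stood at 5.83, 352, 158, 137 and 340 CPM. Thbs1 (thrombospondin-1) was the gene of the list that was lower at every time, with 1044 CPM at d0 and 435, 296, 308 and 319 CPM after injury. Free RNA from the other cells carries the same collagens, and its part in these values was not tested. The sum of the 12 FAP/MP genes in mural cells was lower after injury (3295 CPM at d0, then 1628, 1811, 1150 and 1698 CPM), and in the other cells it stood at 53847, 3043, 7216, 3614 and 3128 CPM. Of those genes 3 of 12 were higher and 5 lower at d3 post-fracture, 3 higher and 7 lower at d5 post-fracture, 2 higher and 6 lower at d3 post-polytrauma, and 3 higher and 4 lower at d5 post-polytrauma, beside 21.8, 29.6, 25.6 and 34.5% of all genes higher and 19.5, 10.3, 23.7 and 16.9% lower.

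Without the shared barcodes the fibrillar median at d5 post-fracture was 1.49, and with Rgs5-positive cells alone the medians were 2.43, 2.41, 1.91 and 2.70. After the rule was applied to cells thinned to 2000 UMIs they were 1.93, 2.24, 0.86 and 2.80, and only 14 cells remained at d3 post-polytrauma, in which Col1a1 was below d0 (log2 ratio -1.16). Per cell, fibrillar genes made up a median of 0.339% of UMIs at d0 and 1.17, 1.59, 1.33 and 2.63% after injury.

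Basement membrane genes included several that were higher at d5. Of the genes compared, 4 of 16 were higher and 4 lower at d3 post-fracture and 4 of 16 higher and 3 lower at d3 post-polytrauma, whereas at d5 they were higher in 10 of 17 after fracture and in 8 of 17 after polytrauma, with 2 and 4 lower. Among all genes 21.8 and 25.6% were higher at d3 after fracture and polytrauma and 29.6 and 34.5% at d5, so the d3 shares were near those of all genes. Of all genes 19.5 and 23.7% were lower at d3 and 10.3 and 16.9% at d5, and the shares of lower members lay near these. Both d5 libraries belong to the second barcode set, so day and library preparation cannot be told apart here. Col4a1, a chain of type IV collagen, stood at 294 CPM at d0, 384 and 333 CPM at d3 post-fracture and post-polytrauma, and 1478 and 1093 CPM at d5 post-fracture and post-polytrauma. In the other cells it went the other way, at 581 CPM at d0 and between 16.0 and 45.6 CPM after injury. Col15a1 stood at 17.5, 128, 165, 43.5 and 251 CPM and Col18a1, the source of endostatin, at 132, 475, 810, 283 and 633 CPM, higher than d0 in each injured library. Lama5, a laminin chain of mature vessels, was lower throughout, at 155, 28.7, 40.9, 21.8 and 21.1 CPM.

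**Figure D5:**
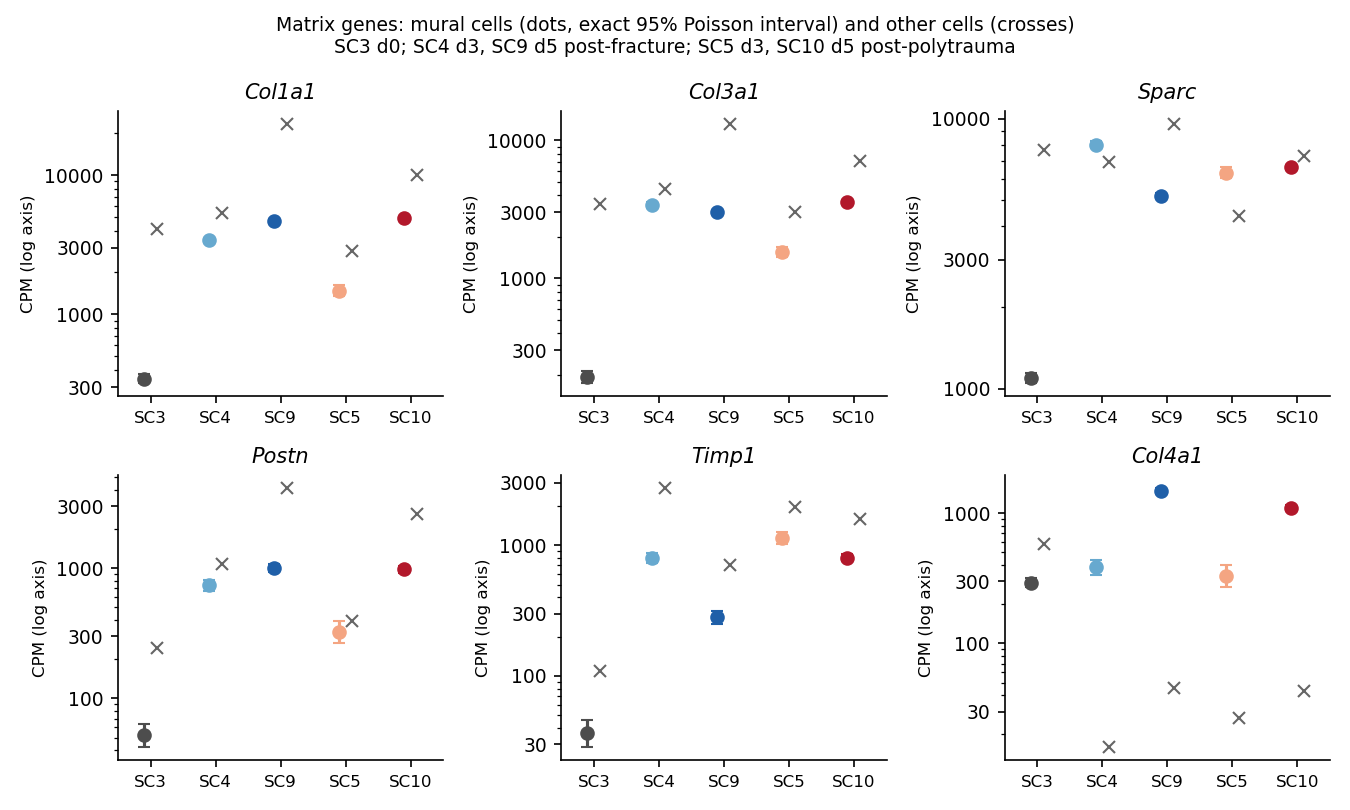
Level of 6 matrix genes in mural cells (dots, exact 95% Poisson intervals) and in the other cells (crosses), in CPM on log axes that differ between panels. Mural Col1a1 stands at 345 CPM at d0 and between 1483 and 4899 CPM after injury, and mural Col4a1 lies above the other cells in each injured library but not at d0.

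A chondrogenic signal at d5 post-fracture came from very few cells. The 16 chondrogenic and osteogenic genes summed to 156 CPM at d0, 320 CPM at d3 post-fracture, 5160 CPM at d5 post-fracture, 734 CPM at d3 post-polytrauma and 757 CPM at d5 post-polytrauma. At d5 post-fracture Col2a1, the collagen of cartilage, stood at 3304 CPM against 0.53 CPM at d0, and Acan (aggrecan) at 995 against 9.01 CPM. Of the 42 mural cells, 3 held 99% of the Col2a1 UMIs and 21.3% of all mural UMIs of the library, yet only 7 Acta2 UMIs, and all 3 shared a barcode with SC10. These cells stay in the d5 post-fracture values of the main setting. With them left out, 23 log2 ratios of named genes, over all comparisons, left their main counting interval and 121 stayed within it. The other cells of the library had 1472 CPM of Col2a1. In the other injured libraries the most abundant gene of the list was Spp1 (osteopontin), of which 1 cell held 95% at d3 post-fracture, 99% at d3 post-polytrauma and 46% at d5 post-polytrauma.

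Several cytokine genes were highest at d3 after both injuries. Ccl2, which attracts monocytes, stood at 94.9 CPM at d0, 2412 and 119 CPM at d3 and d5 post-fracture, and 1967 and 657 CPM at d3 and d5 post-polytrauma. Ccl7 stood at 101, 1069, 83.9, 998 and 301 CPM, and Cxcl2, which attracts neutrophils, at 76.4, 1202, 3.15, 594 and 76.2 CPM. Il6 had a high level already at d0, with 1148 CPM, and stood at 1706, 286, 1380 and 160 CPM after injury. It was above the other cells (391, 128, 159, 159 and 58.2 CPM) in every library. For these 4 genes both d3 libraries were above both d5 libraries.

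Of 21 cytokine and adhesion genes, 10 of 15 compared were higher and none lower at d3 post-fracture, 5 of 13 higher and 6 lower at d5 post-fracture, 9 of 16 higher and 1 lower at d3 post-polytrauma, and 5 of 14 higher and 3 lower at d5 post-polytrauma. Among all genes 21.8, 29.6, 25.6 and 34.5% were higher and 19.5, 10.3, 23.7 and 16.9% lower, and the shares of higher cytokine genes at d5 lay near these. The medians were 2.06, -0.26, 1.38 and 0.35 in mural cells, and -0.23 and -0.97 in the other cells at d3 and d5 post-fracture. When each gene was taken without the 1 cell that held most of its UMIs the mural medians were 1.88, -1.58, 0.18 and -0.05, so the values other than at d3 post-fracture rest in part on single cells. Without the shared barcodes the d5 post-fracture median was -0.94. Ccl11 (eotaxin) stood at 77.4, 324, 307, 171 and 90.03 CPM, and in the other cells at 1516 CPM at d0 and at no more than 70.3 CPM after injury. Angiogenic factors were higher in 5 of 9, 5 of 11, 4 of 10 and 5 of 10 of the genes compared, with 1 lower each time, beside 21.8, 29.6, 25.6 and 34.5% of all genes higher. Angpt2, which loosens the contact of pericytes and endothelium, stood at 25.5, 48.9, 51.4, 21.8 and 31.6 CPM. The counting intervals of its log2 ratio to d0 were 0.22 to 1.64 at d3 and 0.41 to 1.62 at d5 post-fracture, and included 0 after polytrauma. Scaling by median of ratios shifts d0 by -0.25 and d3 and d5 post-fracture by -0.02 and 0.23, which takes both lower bounds under 0. The intervals thus do not separate the injuries. Interferon-stimulated genes were higher in 2 of 4, 5 of 8, 2 of 4 and 3 of 6 genes compared (the same shares of all genes apply), with 1 lower after polytrauma at each day and none after fracture. Without the shared barcodes the median at d5 post-fracture went from 1.04 to 2.95. Bst2 stood at 28.1, 101, 140, 205 and 148 CPM, while Isg15 stood at 281, 158, 169, 87.0 and 71.4 CPM, past 2-fold after polytrauma alone.

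The summed level of the mitotic genes was higher at d3 post-fracture and after polytrauma, while at d5 post-fracture it was close to d0. Top2a, the DNA topoisomerase of dividing cells, had no UMI at d0 and stood at 57.3 and 8.39 CPM at d3 and d5 post-fracture and 59.1 and 152 CPM at d3 and d5 post-polytrauma. Ube2c, a ubiquitin-conjugating enzyme of mitotic exit, stood at 0.53, 172, 8.39, 180 and 205 CPM. After thinning, at least 2 of 20 mitotic genes were seen in 1 of 405 mural cells at d0 (0.247%), 8 of 72 at d3 post-fracture (11.1%), 2 of 42 at d5 post-fracture (4.76%), 11 of 31 at d3 post-polytrauma (35.5%) and 28 of 91 at d5 post-polytrauma (30.8%). The other cells gave 0.607, 35.2, 18.5, 31.0 and 35.1%. The mural intervals after fracture (4.92 to 20.7% and 0.582 to 16.2%) lay below the value of the other cells, and those after polytrauma (19.2 to 54.6% and 21.5 to 41.3%) held it. Free RNA adds UMIs of such genes to cells that do not divide, and its part was not tested. The 20 mitotic genes summed to 186 CPM at d0, where 9 of them had no UMI and Hmgb2 was the most abundant, to 1005 and 218 CPM at d3 and d5 post-fracture and to 1119 and 1716 CPM at d3 and d5 post-polytrauma. In the other cells the sums were 120, 1159, 1029, 1024 and 1471 CPM. The 20 S-phase genes summed to 497, 678, 432, 786 and 1007 CPM. No count of members past 2-fold is given for these lists, because members near 0 at d0 reach the minimum only through the injured library.

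Genes of stress and of tissue dissociation were examined next. Mt1 and Mt2, the metallothioneins that bind zinc, were the most abundant of these at d0, with Mt1 at 21286, 6326, 1287, 3208 and 930 CPM and Mt2 at 5595, 2225, 119, 1734 and 142 CPM. In the other cells d0 was also the highest library, with Mt1 at 10331, 3010, 1195, 4273 and 1242 CPM. Hspa1a, a heat shock protein that dissociation can induce, stood at 1754, 2023 and 2036 CPM in SC3, SC4 and SC5 and at 73.4 and 161 CPM in SC9 and SC10, which follows the barcode sets. Immediate early genes, which handling also induces, were lower in 9 of 17, 5 of 17, 10 of 17 and 6 of 17 and higher in 0, 2, 0 and 2, with Nr4a1 at 1396, 683, 575, 277 and 316 CPM. Heat shock and unfolded protein genes were higher in 7 of 17, 7 of 16, 6 of 16 and 8 of 17 and lower in 2, 5, 2 and 5. Genes of oxidative stress and iron were higher in 2 of 10, 1 of 11, 2 of 10 and 2 of 11 and lower in 4, 7, 4 and 3. Genes of hypoxia and glycolysis were higher in 3 of 18, 6 of 19, 10 of 19 and 4 of 19 and lower in 0, 2, 0 and 1. Beside these counts, 21.8, 29.6, 25.6 and 34.5% of all genes were higher and 19.5, 10.3, 23.7 and 16.9% lower, and several of the shares lay near them. Pgk1, a glycolytic enzyme, stood at 140, 305, 484, 550 and 418 CPM and Ldha (lactate dehydrogenase A) at 323, 845, 803, 1113 and 792 CPM, both highest at d3 post-polytrauma. The median of this list at d3 post-polytrauma was 1.05, and 0.10 when each gene was taken without the 1 cell that held most of its UMIs. Without the cells that share a barcode, the d5 post-fracture medians went from 0.45 to -0.29 for heat shock and from 0.32 to -0.082 for hypoxia and glycolysis.

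Some of the genes furthest from d0, or furthest from the other cells, lay outside the lists. Grp, the gastrin-releasing peptide, stood at 226 CPM at d0 and 65.7 CPM at d3 post-fracture, 46% of it in 1 cell, and had no UMI at d5 post-fracture or after polytrauma. Against a limit of 3 UMIs its log2 ratio to d0 was at most -6.17 at d5 post-fracture. Ctsc, the protease cathepsin C, had no UMI at d0 and stood at 150, 86.0, 90.1 and 67.3 CPM after injury, a log2 ratio of at least 6.56 at d3 post-fracture, and 1 cell held 55% of its UMIs at d5 post-fracture. Sdc1 (syndecan-1) stood at 6.89, 389, 217, 274 and 182 CPM, with 12.8 CPM at d0 and at most 79.5 CPM after injury in the other cells. Arhgdib, known from blood cells, stood at 3.71, 184, 159, 186 and 264 CPM. Rnd1 went from 245 CPM to 16.9, 10.5, 9.32 and 5.68 CPM. Rasl11a, a Ras-like GTPase, stood at 1607, 452, 524, 55.9 and 95.7 CPM. Gja4, the gap junction protein connexin 37, stayed within 2-fold of d0, at 122, 143, 120, 134 and 84.4 CPM in mural cells, while in the other cells it went from 12.4 CPM at d0 to at most 0.632 CPM.

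The fracture and polytrauma libraries were compared with each other at each day to ask what muscle compression adds. At d3, 11.3% of 4551 genes were past 2-fold between the injuries (4.11% higher and 7.16% lower in post-polytrauma). With 31 cells at d3 post-polytrauma, counting error alone takes some genes of low level past 2-fold, so this share is not all difference between the samples. Of the contractile genes 3 of 19 were lower and 1 higher, with a median of -0.48. Pln went from 110 CPM post-fracture to 21.8 CPM post-polytrauma, a log2 ratio of -2.33 (-3.70 to -1.21), and Acta2 from 7987 to 5641 CPM, a log2 ratio of -0.50 (-0.58 to -0.42). Col1a1 went from 3395 to 1483 CPM, a log2 ratio of -1.20 (-1.34 to -1.05), and 3 of 26 fibrillar genes were lower and none higher. Of the Notch genes 3 of 8 were lower and none higher, and of the cytokine genes 2 of 17 lower and 1 higher. Of the hypoxia and glycolysis genes 1 of 19 was higher and none lower, with a median of 0.58 that stayed between 0.43 and 0.72 without each gene's top cell, with every cell weighed the same, in Rgs5-positive cells and after thinning.

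Among genes outside the lists at d3, Rasl11a had a log2 ratio of -3.01 (-3.79 to -2.33) and Vps37b, a sorting protein, of -2.73 (-3.82 to -1.80). Fmod (fibromodulin), a tenocyte gene of the lists, went from 110 to 15.5 CPM, with 72% of the former in 1 cell. Both genes named here as higher after polytrauma rested on few cells. Slpi, a protease inhibitor, went from 8.43 to 87.0 CPM with 71% in 1 cell, and Il1rl1, the receptor of interleukin 33, from 11.8 to 106 CPM with 56% in 1 cell. The 31 cells at d3 post-polytrauma held 321740 UMIs in all, the fewest of any library.

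At d5 the injuries differed for 14.5% of 5896 genes (5.55% higher and 8.94% lower in post-polytrauma). The contractile genes were lower in 12 of 18, with none higher and a median of -1.15, against 0.52 in the other cells. Acta2 went from 8267 CPM post-fracture to 4721 CPM post-polytrauma, a log2 ratio of -0.81 (-0.86 to -0.76), Tagln from 4352 to 2197 CPM (-0.99, -1.06 to -0.92), and Pln from 304 to 25.1 CPM (-3.60, -4.18 to -3.06). Vasoactive genes were lower in 8 of 13 and pericyte genes in 4 of 10, with none higher, and the pericyte median was -0.58, or 0.058 with every cell weighed the same. Lower values were also seen for Notch genes in 4 of 8 with 1 higher. Without the shared barcodes the contractile median was -1.85. Fibrillar genes were higher in 4 of 26 and none was lower, with a median of 0.30, and Col1a1 stood at 4677 and 4899 CPM. Without the shared barcodes this median was 1.33 and Col1a1 stood at 1423 and 5247 CPM, so the small difference in matrix genes at d5 rests on those cells.

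The 20 mitotic genes summed to 218 CPM at d5 post-fracture and 1716 CPM at d5 post-polytrauma, against 1029 and 1471 CPM in the other cells. Ube2c went from 8.39 to 205 CPM and Top2a from 8.39 to 152 CPM. Hmox1, the heme oxygenase, went from 24.1 CPM post-fracture to 444 CPM post-polytrauma, a log2 ratio of 4.20 (3.60 to 4.87), while in the other cells it stood at 79.6 and 135 CPM. Oxidative stress and iron genes were higher in 5 of 11 and none was lower. Cytokine genes were higher in 7 of 15 and lower in 4, with Ccl2 at 119 and 657 CPM. Among all genes compared at d5, 5.55% were higher and 8.94% lower in post-polytrauma. Chondrogenic genes summed to 5160 and 757 CPM, with Col2a1 at 3304 and 3.24 CPM, through the 3 cells described above. The sex genes Xist and Ddx3y also separate these libraries, as given at the start.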

How the data were processed

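The authors sorted GFP+ cells, prepared droplet libraries and deposited raw UMI counts per gene and barcode, without normalization. Per the labels, reads were aligned to mm10 with Cell Ranger; the matrix headers give Cell Ranger 3.1.0. Features were identical in all 5 matrices (31055).

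Counts of the member cells were summed per library and divided by their total (CPM). Levels have exact Poisson intervals, ratios exact conditional binomial intervals and shares Clopper-Pearson intervals (95%), all for counting error only. A gene was compared where the mean of both CPM was at least 20 and called at 2-fold; a count of 0 was set to 3 UMIs. No count model was fitted, since each condition has 1 library. Genes were named from 28 lists, or as the 12 in each direction whose interval lay farthest from 0 among genes seen in at least 10% of cells (25 by ratio at d0, at least 50 CPM); a few examples were chosen from these. Members and lists were chosen with earlier results of these data known.

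Doublets were scored with Scrublet and kept (the highest scores, 0.8% per 1000 cells, were left out as an alternative). Clusters at d0 used scanpy 1.11.5 (2000 variable genes, 20 components, 15 neighbours, resolution 0.5). The intervals were tested on simulated counts. Python 3.11.15, numpy 2.4.6, scipy 1.17.1, pandas 2.3.3, leidenalg 0.10.2 and matplotlib 3.10.9 were used.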

Additional observations from a re-analysis of the deposited data

Results flagged for a closer look

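Cxcl1, a chemokine that attracts neutrophils, went in opposite directions at the 2 days after fracture. Its level in mural cells was 1981 CPM at d0, 4647 CPM at d3 post-fracture and 504 CPM at d5 post-fracture, a log2 ratio to d0 of 1.23 (95% counting interval 1.16 to 1.30) at d3 and of -1.98 (-2.12 to -1.84) at d5. The other cells had 3132, 3744 and 864 CPM. After polytrauma the log2 ratios were 0.49 at d3 and -0.96 at d5. The difference between the days was not tested, since each has 1 library, and the d5 libraries belong to the second barcode set.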

How the results depend on the processing

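No paired analysis was possible because each condition has 1 library, and no replicate could be left out. Scaling by median of ratios shifted the libraries by -0.25 (d0), -0.02 and 0.23 (d3 and d5 post-fracture) and -0.07 and 0.24 (d3 and d5 post-polytrauma, log2), and moved the share of higher genes among those past 2-fold against d0 from 52.8 to 40.0% at d3 post-fracture, 74.1 to 47.9% at d5 post-fracture, 52.0 to 44.0% at d3 post-polytrauma and 67.1 to 47.5% at d5 post-polytrauma. It turned the direction of no list or gene of the report that was at least 2-fold apart. The cause of the following was not tested unless the setting itself shows it.

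Shares of mural cells moved after thinning to 2000 UMIs (4.99, 0.671, 1.74, 0.229 and 0.425%), with at least 2000 UMIs (10.4% at d0), with 4 markers (3.37% at d0, 0.859% at d3 post-fracture, 0.274 and 0.553% at d3 and d5 post-polytrauma), without use of Pdgfra (1.05% at d5 post-polytrauma), without shared barcodes (4.51% at d5 post-fracture) and with the deposited labels (2.86% at d3 post-polytrauma, 0.50% at d5 post-fracture). Genes past 2-fold, in the order d3 and d5 post-fracture, d3 and d5 post-polytrauma against d0, then polytrauma against fracture at d3 and d5, numbered 1946, 2159, 2317, 2767, 513 and 854. With a minimum of 50 CPM they were 998, 1041, 1192, 1412, 139 and 357, and with no minimum 4963, 5657, 4970, 6627, 2180 and 3141. Polytrauma against fracture at d3 gave 1307 after thinning, 866 with every cell weighed the same and 1658 with the deposited labels, and at d5 557 without use of Pdgfra, 1818 without shared barcodes and 1428 with the deposited labels.

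Among the genes of the report and the list medians that were at least 2-fold apart in the main setting, directions turned in these cases (log2). After thinning, Col1a1 at d3 post-polytrauma was -1.16. The FAP/MP median went from -1.18 to 0.50 at d5 post-fracture without use of Pdgfra. At d3 post-polytrauma it went from -1.02 to 0.11 without the highest doublet scores. The S-phase median at d3 post-fracture, 2.05 in the main setting, was -0.087 without cells with endothelial or hematopoietic genes. It was -0.089 with every cell weighed the same and -0.0053 without each gene's top cell. At d5 post-polytrauma it went from 3.94 to -0.046 with a minimum of 50 CPM. Without shared barcodes chondrogenic genes at d5 were 0.36 between the injuries. With the deposited labels, d5 post-fracture had basement membrane genes at -0.29, Cxcl1 at 0.49 and Il6 at 0.27. Post-polytrauma at d3 then had transcription factors at 0.37, cytokines at -0.26, S-phase genes at -0.20, immediate early genes at 0.038 and Hes1 at 0.16. Between the injuries those labels gave Il1rl1 -2.49, Pln 1.47, Rasl11a 0.21, Col1a1 0.46 and Fmod 1.27 at d3, and vasoactive genes 0.26, Pln 0.21, Mylk 0.023 and Ccl2 -1.58 at d5. List medians under 2-fold also changed sign in 140 of 1239 pairs of a median and a setting, among them vasoactive genes at d5 post-fracture without shared barcodes (-0.54 to 0.26), and, after thinning, angiogenic factors at d3 post-polytrauma (0.54 to -0.60) and cytokines at d5 post-fracture (-0.26 to 0.44). The settings with Rgs5-positive cells alone, without Col2a1-rich cells, without each gene's top cell, without cells lacking both Rgs5 and Myh11, and without every shared barcode were chosen after seeing the data. The 31 to 93 mural cells of 4 libraries limit genes under about 20 CPM.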
